A study of Mus musculus with 18 samples.

Results

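Polycomb group proteins form a pair of multi-subunit enzymes that keep developmental genes silent. The first, PRC2, adds methyl groups to lysine 27 of histone H3 through the catalytic subunit EZH2 or its paralogue EZH1, which work only in a core with EED and SUZ12. The accessory subunits JARID2 and MTF2 help to bring PRC2 to unmethylated CpG-rich DNA. The other, PRC1, ubiquitinates histone H2A through RNF2, which pairs with a PCGF protein such as BMI1, and its CBX subunits, such as CBX7 and CBX2, can bind the mark that PRC2 leaves. In embryonic stem cells these complexes occupy the promoters of lineage regulators, and cells without PRC2 differentiate poorly.

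The genes described here are 10 subunits of these complexes, chosen by name: Ezh1, Ezh2, Eed, Suz12, Jarid2, Mtf2, Rnf2, Bmi1, Cbx7 and Cbx2. Their mRNAs were found on the array through the RefSeq accession of each probe, which gave 11 probes for the 10 genes, of 37246 probes and 34289 distinct names in all. Ezh2 had 2 probes, and the brighter probe stands for the gene below.

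Gene expression was measured on 18 one-color arrays, 3 for each of 6 groups. ES cells are wild-type, early passage mouse embryonic stem cells kept with LIF on gelatin without feeder cells, and ED cells are isogenic non-stem cells obtained from them by undirected differentiation without LIF. Both were left unirradiated or received 10 Gy of ionizing radiation (IR). Irradiated ES cells were taken after 15 min (ESRE) or 4 h (ESRL), and the same times gave EDRE and EDRL. The labels number the samples of a group as replicates but do not say whether they were separate cultures, so the p-values measure the spread between these samples, which may be technical. Undirected differentiation can give a mixture of cell types, and in bulk RNA a smaller number of cells that express a gene and less RNA per cell cannot be told apart.

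The labels were checked against marker genes. All 10 stem cell markers listed were well above background on every ES array, and their summed level was 583 to 593 times the 75th percentile of the array in ES cells and 17.5 to 23.1 times in ED cells. Spots marked as outliers were kept in this and the other summed levels. Pou5f1, which encodes Oct4, had a mean log2 value of 6.69 in ES and -3.59 in ED cells, whereas Klf4 had 3.84 and 3.89. The summed level of 10 mesenchymal markers was 63.4 to 76.6 in ES and 499 to 634 in ED cells. Of the 9 that could be tested, 8 were higher and 1 was lower in ED cells, by the thresholds given below. All 10 were well above background on every ES array, and 1 was so on no ED array. The summed level of 12 proliferation genes was 362 to 375 in ES and 289 to 350 in ED cells. Their part in the differences described below was not tested. EDRE replicates 2 and 3 stood apart from the other arrays, with a 75th percentile of 875 and 1155 signal units against 1952 to 4268 elsewhere and 24.4% and 23.8% of spots marked as outliers against 3.33% to 11.1%. For this reason, 7 of the 10 subunits had no usable spot on EDRE replicate 2 and 6 had none on EDRE replicate 3.

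The promoters of the subunits with the largest changes between ES and ED cells are shown first, because CpG-rich DNA is what PRC2 accessory subunits are known to recognize. RefSeq (build GRCm38.p6) listed a promoter for 9 of the 10 genes, 11 promoters in all, with 2 starts each for Jarid2 and Mtf2. Cbx2 did not match. Each sequence is the 250 bases before an annotated start, 5′ to 3′ on the strand of the gene, with CpG dinucleotides in capitals, and which start these cells used was not measured. The 5 promoters lie at chr13:44730524-44730773 (Jarid2, plus strand, the first of 2 starts), chr5:108065424-108065673 and chr5:108077915-108078164 (Mtf2, plus strand, both starts), chr15:79932647-79932896 (Cbx7, minus strand) and chr2:18676768-18677017 (Bmi1, plus strand).
Jarid2: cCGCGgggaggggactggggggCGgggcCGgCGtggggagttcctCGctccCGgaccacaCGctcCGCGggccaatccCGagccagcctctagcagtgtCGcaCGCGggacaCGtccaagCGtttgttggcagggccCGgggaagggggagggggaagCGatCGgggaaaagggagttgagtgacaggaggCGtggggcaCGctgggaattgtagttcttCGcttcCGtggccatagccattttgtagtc
Mtf2, first start: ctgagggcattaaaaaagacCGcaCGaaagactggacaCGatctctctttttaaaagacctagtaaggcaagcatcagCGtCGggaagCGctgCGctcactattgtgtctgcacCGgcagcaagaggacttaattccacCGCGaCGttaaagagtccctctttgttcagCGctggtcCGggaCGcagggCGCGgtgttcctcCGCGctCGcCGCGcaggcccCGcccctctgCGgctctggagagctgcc
Mtf2, second start: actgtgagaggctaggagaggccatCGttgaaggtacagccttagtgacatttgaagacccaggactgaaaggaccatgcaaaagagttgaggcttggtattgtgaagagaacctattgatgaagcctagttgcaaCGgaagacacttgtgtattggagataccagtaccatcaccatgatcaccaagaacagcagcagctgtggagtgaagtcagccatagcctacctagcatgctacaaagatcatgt
Cbx7: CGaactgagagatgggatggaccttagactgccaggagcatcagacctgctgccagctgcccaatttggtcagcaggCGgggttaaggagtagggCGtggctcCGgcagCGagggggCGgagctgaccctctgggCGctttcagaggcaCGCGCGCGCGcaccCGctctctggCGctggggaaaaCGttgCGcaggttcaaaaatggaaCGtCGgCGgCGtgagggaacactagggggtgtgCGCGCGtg
Bmi1: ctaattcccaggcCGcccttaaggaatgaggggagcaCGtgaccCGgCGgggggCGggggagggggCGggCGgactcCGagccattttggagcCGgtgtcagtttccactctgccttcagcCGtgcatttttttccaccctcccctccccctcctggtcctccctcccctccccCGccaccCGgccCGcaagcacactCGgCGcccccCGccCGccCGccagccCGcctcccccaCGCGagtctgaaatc

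The promoters of Cbx7 and Ezh2 and the first starts of Jarid2 and Mtf2 each held 23 CpG dinucleotides. This number was reached by 13.3% of the 32851 promoters in the table, whose median was 6. The second Jarid2 start held 22 and the Rnf2 promoter 20, and neither Ezh2 nor Rnf2 passed the fold threshold below. The Bmi1 promoter, of the gene that moved the other way, held 21, a number reached by 16.3%. The Eed promoter, of a gene that also fell, held 12, and 1 rising gene among these is too few to relate the number to a direction. The second Mtf2 start held 2, and the richest promoter was that of Suz12 with 37. The GC box GGGCGG, which contains a CpG and was searched on both strands, was present in 7 of the 11 promoters, from 6 of the 9 genes. It was present in 32.7% of all promoters, and the Bmi1 promoter held 6 such boxes. The words TTTCCCGC, TTTCGCGC, TTTGCCGC and TTTGGCGC, bound by E2F cell cycle factors, were searched on both strands and matched only the promoter of Suz12, against 1.86% of all promoters.

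Differentiation was examined by comparing unirradiated ED with ES cells. Values are log2 signals minus the 75th percentile of their array, which is therefore 0. A gene was counted as changed where limma, fitted across all 6 groups, gave a Benjamini-Hochberg adjusted p under 0.05 over all probes tested and a log2 change over 1 in size. Of the 10 subunits, 1 rose (Bmi1) and 4 fell (Jarid2, Mtf2, Cbx7 and Eed). Among the 26150 genes tested, 14.7% rose and 26.3% fell. The subunits had a median log2 change of -0.75, beside -0.19 for all genes tested. The split between rises and falls moved with the scaling: relative to the 75th percentile 3841 genes rose and 6874 fell, and relative to the array median 6867 rose and 4778 fell, with a median change of 0.46.

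**Figure D1:**
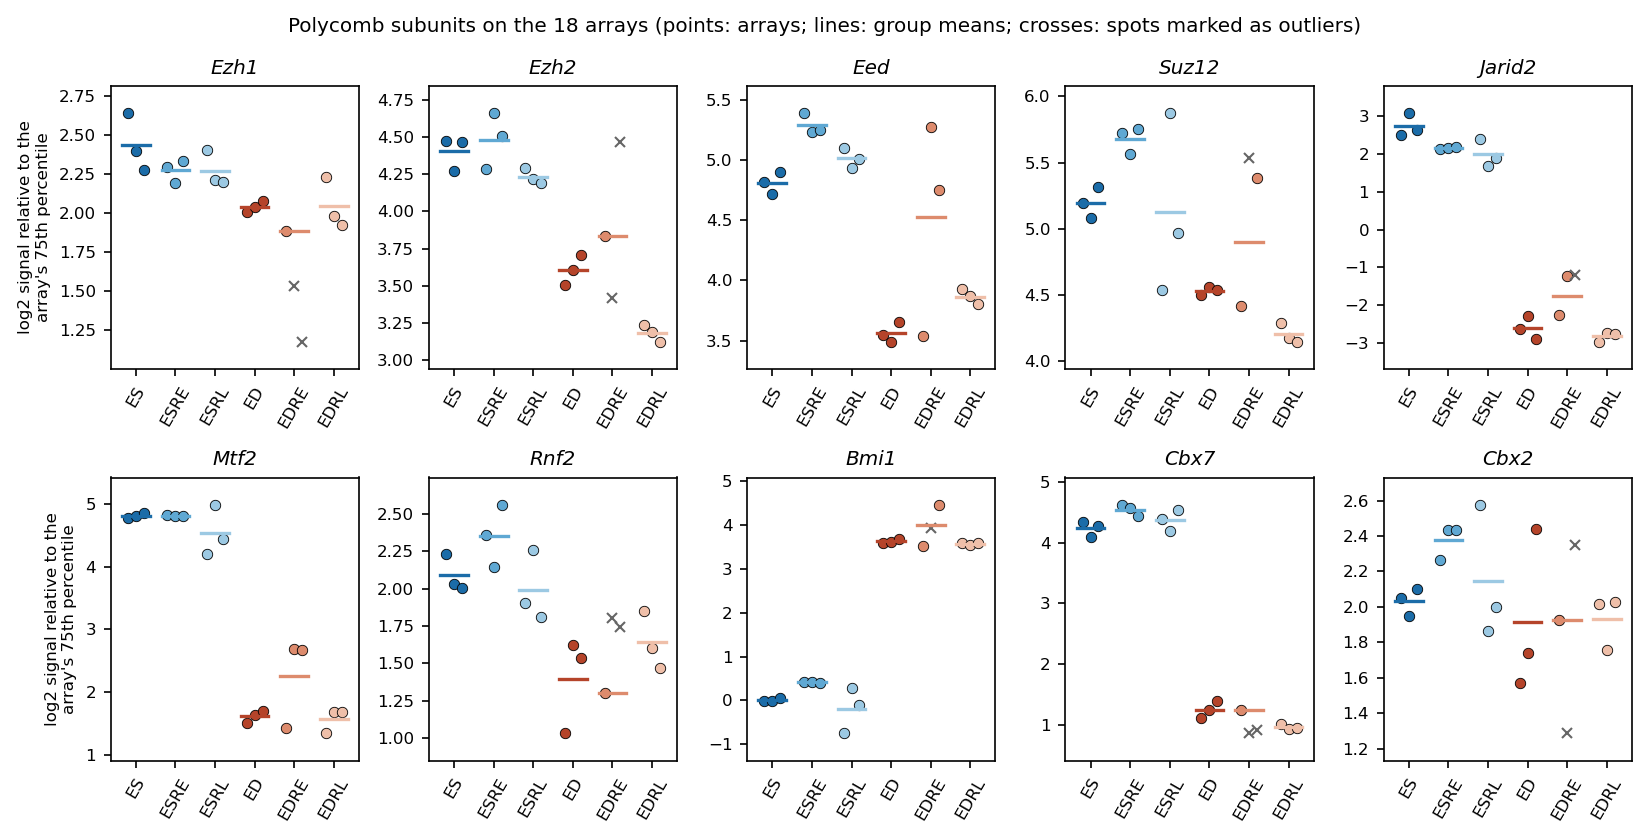
Log2 signal of the 10 Polycomb subunits over the array's 75th percentile (y axis, a separate range for each gene) in the 6 groups (x axis). Each filled point is an array, each line the mean of the usable arrays of a group, and each gray cross a spot marked as an outlier and left out. Over the filled points, Ezh2, Jarid2, Mtf2, Cbx7 and Bmi1 separate the ES-derived from the ED-derived arrays, and the other 5 overlap between them. The Ezh2 cross of EDRE replicate 3, at 4.47, lies within the ES-derived range of 4.19 to 4.66.

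Among the PRC2 subunits, the largest difference was that of Jarid2, the accessory subunit that helps to recruit the complex. It measured 2.50, 3.08 and 2.64 in ES cells and -2.63, -2.28 and -2.89 in ED cells. The groups were far apart, and Jarid2 fell by 5.34 on the log2 scale (SE 0.27, limma adjusted p = 8.9e-10), which is 40.4-fold. Only 3.92% of the genes tested had a lower change.

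Mtf2, a Polycomb-like protein that binds CpG-rich DNA, measured 4.78, 4.81 and 4.85 in ES cells and 1.52, 1.64 and 1.70 in ED cells. It fell by 3.19 (SE 0.28, limma adjusted p = 1.7e-07), or 9.15-fold, and the values within each group lay close together. Both accessory subunits remained well above background on all 18 arrays.

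Of the catalytic core, Eed, the subunit that reads the methyl mark and is needed for the activity of the enzyme, measured 4.82, 4.72 and 4.90 in ES cells and 3.55, 3.49 and 3.66 in ED cells. The groups did not overlap, and Eed fell by 1.25 (SE 0.30, limma adjusted p = 0.0025), or 2.37-fold. This call was lost relative to the array median (log2 change -0.60, adjusted p = 0.077), in the deposited matrix (-0.60, adjusted p = 0.086) and with the scan as a random block (-1.19, adjusted p = 0.13).

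Ezh2, the catalytic subunit that prevails in dividing cells, measured 4.47, 4.27 and 4.47 in ES cells and 3.51, 3.60 and 3.70 in ED cells. All 3 ED values lay below the ES values, with a log2 change of -0.80 (SE 0.14, limma adjusted p = 0.00035), which passed the test and not the fold threshold. The second Ezh2 probe, for another transcript accession, gave -0.86 (SE 0.17, adjusted p = 0.0012). Relative to the array median, Ezh2 gave -0.16 (adjusted p = 0.46). Ezh1, the catalytic paralogue known from resting and differentiated cells, measured 2.64, 2.40 and 2.28 in ES cells and 2.01, 2.04 and 2.08 in ED cells. Its log2 change of -0.40 (SE 0.15, adjusted p = 0.038) passed the test alone, but relative to the array median it was 0.25 (adjusted p = 0.30), so that its direction rests on the scaling.

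Suz12, which holds the core together, measured 5.19, 5.08 and 5.32 in ES cells and 4.50, 4.56 and 4.54 in ED cells. Although the groups did not overlap, the log2 change of -0.67 (SE 0.29) did not pass the test (limma adjusted p = 0.072), in which the spread is shared by all 6 groups, and Suz12 ranged from 4.53 to 5.87 among the ESRL arrays. Scaled to the array median, Suz12 gave -0.02 (adjusted p = 0.93).

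Among the PRC1 subunits, Cbx7, the chromobox protein known as the main CBX of embryonic stem cells, measured 4.33, 4.09 and 4.27 in ES cells and 1.11, 1.25 and 1.41 in ED cells. It fell by 2.98 (SE 0.15, limma adjusted p = 1.9e-09), or 7.86-fold. Bmi1, a PCGF subunit known to repress the Cdkn2a locus in adult stem cells and fibroblasts, measured -0.01, -0.00 and 0.05 in ES cells and 3.59, 3.62 and 3.66 in ED cells. It rose by 3.61 (SE 0.25, limma adjusted p = 2.1e-08), or 12.2-fold, and 97.5% of the genes tested had a lower change.

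Rnf2, the catalytic E3 ligase of PRC1, measured 2.23, 2.03 and 2.0 in ES cells and 1.03, 1.62 and 1.53 in ED cells. Its log2 change of -0.69 (SE 0.20, limma adjusted p = 0.011) passed the test and not the fold threshold, and relative to the array median it was -0.05 (adjusted p = 0.85). Cbx2, another chromobox subunit, measured 2.05, 1.95 and 2.10 in ES cells and 1.57, 1.74 and 2.44 in ED cells. The groups overlapped, and the log2 change was -0.12 with a 95% interval from -0.63 to 0.40 (adjusted p = 0.73). Relative to the array median Cbx2 gave 0.53 (adjusted p = 0.13), so no direction can be given for it.

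Without the fold threshold, 8 of the 10 subunits passed, and 7 of them were lower in ED cells. Of the 26150 genes tested, 5017 were then higher and 8277 (31.7%) lower, so passing was common. The count of 7 also rests on the scaling, since Ezh1, Ezh2, Eed and Rnf2 did not pass the test relative to the array median. The values of ES and ED cells did not overlap for 9 of the 10 subunits, beside 72.2% of the genes tested, so the absence of overlap was common in this comparison. Leaving out each array in turn changed no call among Bmi1, Jarid2, Mtf2, Cbx7 and Eed. The unirradiated ES and ED arrays were in different scans, but ESRE replicate 3 was scanned together with the 3 ED arrays. Within that scan, ESRE replicate 3 measured 2.19 for Jarid2, 4.81 for Mtf2, 4.44 for Cbx7, 5.25 for Eed and 0.39 for Bmi1. Each of these values lay outside the ED values given above, on the side of the ES arrays.

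**Figure D2:**
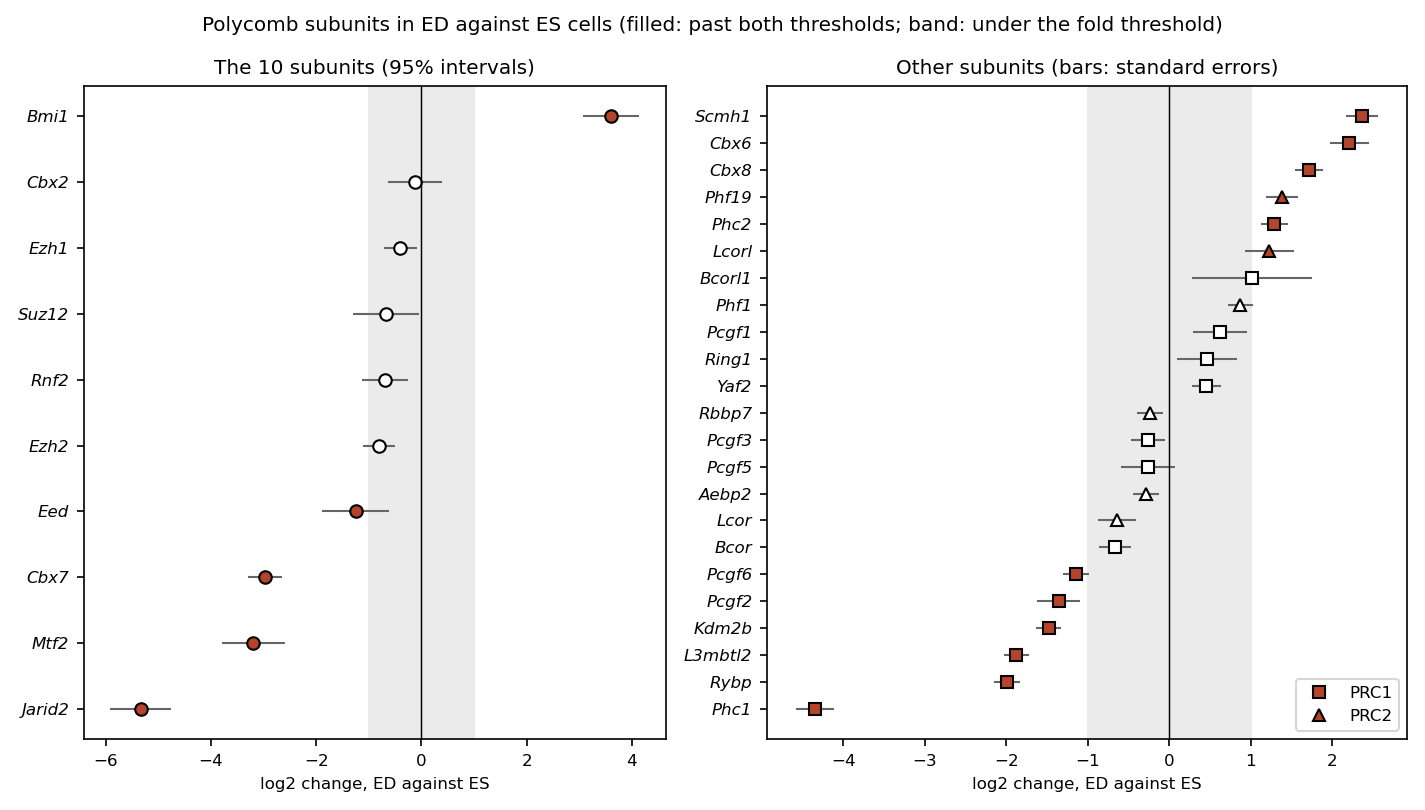
Log2 change in ED against ES cells (x axis) of the 10 Polycomb subunits with 95% intervals (left) and of 23 other PRC1 and PRC2 subunits with standard errors (right). Filled symbols passed both thresholds and the gray band marks changes under the fold threshold. Jarid2, at -5.34, and Bmi1, at 3.61, are the ends of the left panel, and Phc1, at -4.35, and Scmh1, at 2.37, are the ends of the right panel.

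The remaining subunits of the complexes were then described from a list of 28 genes, of which 26 were on the array and 23 could be tested. Of these, 6 rose and 6 fell, with a median log2 change of -0.24, beside 14.7% and 26.3% of all genes tested and a median of -0.19. Relative to the array median, 10 rose and 3 fell. Scml2 and Auts2 were not matched on the array. Epop, a listed PRC2 subunit, was not among the 23 tested. In the deposited matrix Epop gave a log2 change of -5.26 (limma adjusted p = 1.0e-05), beside -3.70 for Phc1.

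Paralogues of the subunits above moved in both directions. Cbx6 and Cbx8, chromobox proteins that can take the place of Cbx7 in PRC1, rose by 2.21 (SE 0.24) and 1.72 (SE 0.17), with limma adjusted p-values of 2.6e-05 and 1.9e-06. Cbx8 measured -1.26, -1.60 and -1.73 in ES cells and -0.07, 0.35 and 0.27 in ED cells, without overlap. Among the PCGF paralogues of Bmi1, Pcgf2 fell by 1.36 (SE 0.27, adjusted p = 0.00053) and Pcgf6, a partner in the PRC1 form found in stem cells, fell by 1.14 (SE 0.16, adjusted p = 4.5e-05), whereas Pcgf1, Pcgf3 and Pcgf5 gave 0.62, -0.26 and -0.26 and did not pass the test. Scaled to the array median, the calls of Pcgf2 (-0.71) and Pcgf6 (-0.50) were lost to the fold threshold, Pcgf1 passed (1.27, adjusted p = 0.0011), and Pcgf3 and Pcgf5 gave 0.38 each. Phc1, a polyhomeotic subunit of PRC1, had the largest fall among the 23 genes of the list that could be tested. It measured 4.23, 4.35 and 4.23 in ES cells and 0.22, -0.11 and -0.34 in ED cells, and fell by 4.35 (SE 0.23, adjusted p = 1.3e-08), whereas its paralogue Phc2 rose by 1.29 (SE 0.17, adjusted p = 2.6e-05).

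Subunits of the PRC1 forms without CBX proteins were among those that fell. Rybp, which stimulates the ligase, fell by 1.99 (SE 0.16, limma adjusted p = 2.4e-07). L3mbtl2 fell by 1.88 (SE 0.15, adjusted p = 2.5e-07), and Kdm2b, which binds unmethylated CpG, fell by 1.48 (SE 0.15, adjusted p = 2.2e-06), a call lost to the fold threshold relative to the array median (-0.84). Scmh1, a partner of the polyhomeotic proteins, rose by 2.37 (SE 0.19, adjusted p = 1.4e-06). Among accessory subunits of PRC2, Phf19, a paralogue of Mtf2, rose by 1.38 (SE 0.20, adjusted p = 5.5e-05), and Lcorl rose by 1.23 (SE 0.30, adjusted p = 0.0026), although the call of Lcorl was lost with the scan as a random block (0.92, adjusted p = 0.37). Phf1, the third Polycomb-like paralogue, gave 0.87 (SE 0.15, adjusted p = 0.00029), under the fold threshold, and passed relative to the array median (1.52, adjusted p = 4.3e-05).

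Enzymes that remove Polycomb marks or belong to the complexes that do so were represented by 6 genes, of which 1 rose and 0 fell. The shares of all genes tested were 14.7% and 26.3%. Asxl2, a cofactor of the H2A deubiquitinase Bap1, rose by 1.28 (SE 0.29, limma adjusted p = 0.0025), a call lost with the scan as a random block (1.03, adjusted p = 0.29). The H3 demethylases Kdm6a and Kdm6b gave -0.19 (adjusted p = 0.66) and -0.90 (adjusted p = 0.018). The other 3, Bap1, Asxl1 and Usp16, gave -0.61, -0.65 and -0.94, each under the fold threshold. Relative to the array median, Kdm6a gave 0.45, Kdm6b -0.26 (adjusted p = 0.52), Bap1 0.03, Asxl1 -0.004 and Usp16 -0.30. None of these passed the test there. Asxl3 was not matched on the array.

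The genes that Polycomb complexes are known to hold silent in embryonic stem cells were described from a list of 29 developmental regulators. All 29 were well above background on every ES array, and 15 were so on every ED array, whereas 8 were above background on no ED array. Of the 27 that could be tested, 7 rose and 17 fell in ED cells, with a median log2 change of -1.41. Of all genes tested, 14.7% rose and 26.3% fell, with a median of -0.19. Relative to the array median, 8 rose and 12 fell, and with the scan as a random block 6 rose and 9 fell. When a gene had to be above background in both groups, 7 rose and 4 fell, so most of the falls were of genes with weak or no signal in ED cells. Histone marks and binding were not measured.

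Hoxd13, which patterns distal limbs, measured -1.85, -1.95 and -2.09 in ES cells and 4.72, 4.62 and 4.67 in ED cells, and rose by 6.64 (SE 0.15, limma adjusted p = 1.8e-12). The limb and heart factor Tbx5 measured -5.90, -5.87 and -6.00 in ES cells and -0.45, -0.03 and 0.55 in ED cells, and rose by 5.95 (SE 0.47, adjusted p = 4.9e-08). The LIM homeobox gene Lhx9 rose by 2.76 (SE 0.58, adjusted p = 0.00091).

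The lowest fitted changes of the list were those of Wt1, Neurog1 and Hoxb13, regulators of kidney and gonad, of sensory neurons and of the posterior body. None was well above background on any ED array, so only a bound can be given, taken against the lowest signal well above background on each ED array or the signal of the probe itself where that was higher. Wt1 was at least 155-fold higher in ES cells, where it measured -0.23, -0.36 and 0.09. Neurog1 was at least 36.9-fold higher and Hoxb13 at least 56.8-fold higher in ES cells. These genes entered the test only through their signal in ES cells, so no p-value is given for them.

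Cdkn2a, which encodes p16Ink4a and p19Arf and is the best known target of Bmi1 and Cbx7, was well above background on 3 of 3 ES arrays and 1 of 3 ED arrays. Its only ES spot not marked as an outlier gave -3.56, and the ED arrays gave -9.39, -6.67 and -9.25. The fitted log2 change of -4.88 (SE 0.92, limma adjusted p = 0.00059) thus rests on 1 ES array and on ED signals mostly not well above background, so its size is not a measured difference, and it ran from -5.76 to -2.26 over the alternatives. The call was lost with the scan as a random block (-5.25, adjusted p = 0.070) and in the methods' t-test (adjusted p = 0.15). In ESRE cells, with 3 usable arrays, Cdkn2a measured -3.45, -3.36 and -3.48.

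**Figure D3:**
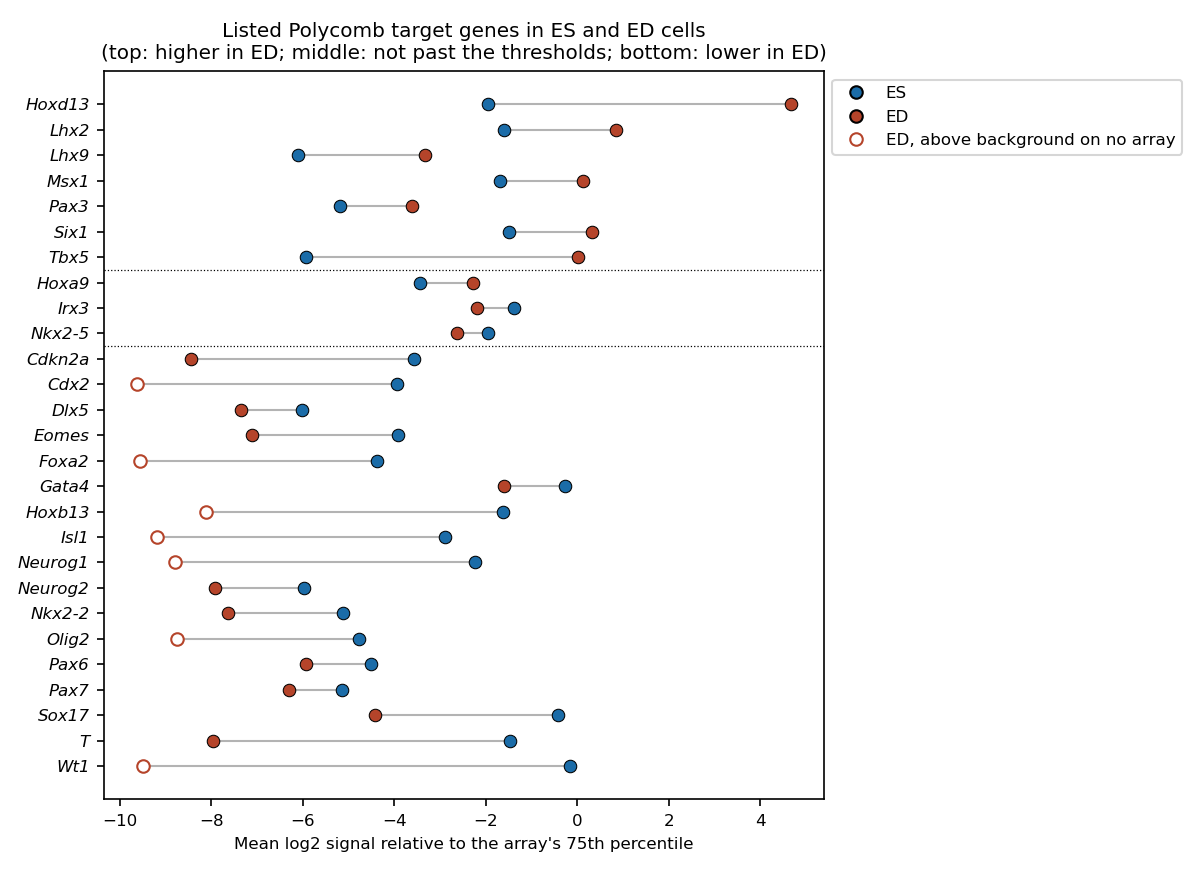
Mean log2 signal over the array's 75th percentile (x axis) in ES (blue) and ED cells (red) for the 27 tested genes of the Polycomb target list (y axis, in alphabetical order within each block). Open red circles mark genes well above background on no ED array, whose ED position is not a measured level, and filled red circles include genes above background on 1 to 3 ED arrays. Hoxd13 and Tbx5 have the longest lines in the upper block of 7 genes, and the lower block holds 17 genes.

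The response to IR was examined within each cell type. No irradiated group shared a scan with its unirradiated controls, so that a difference between scans cannot be told apart from the response in these comparisons. The 2 comparisons of ES cells share the ES arrays, the 2 comparisons of ED cells share the ED arrays, and both sets of controls also enter the comparison of ED with ES cells. In limma, 0 of the 10 subunits passed both thresholds at either time in either cell type. The methods' t-test with the same fold threshold, adjusted or not, also gave 0 in each comparison. Among all genes tested, 0.271% rose and 0.169% fell in ESRE against ES, 0.639% rose and 6.73% fell in ESRL against ES, 2.07% rose and 2.81% fell in EDRE against ED, and 1.35% rose and 0.25% fell in EDRL against ED. A count of 0 among 10 genes is near each of these shares. With the scan as a random block, 0 genes passed in ESRE, ESRL or EDRE, and 32 rose and 0 fell in EDRL.

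**Figure D4:**
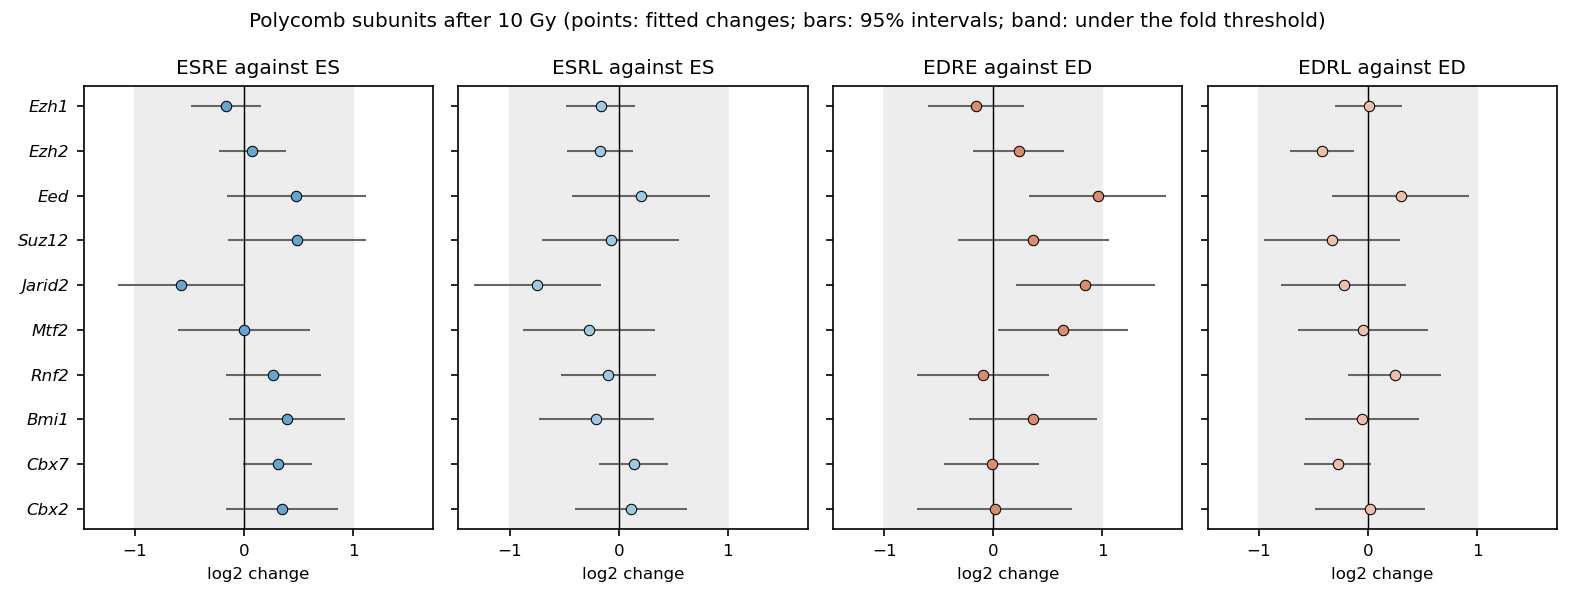
Fitted log2 change (x axis) of each of the 10 Polycomb subunits (y axis) 15 min (ESRE, EDRE) and 4 h (ESRL, EDRL) after 10 Gy, against the unirradiated cells of the same type. Bars are 95% intervals and the gray band marks changes under the fold threshold. All 40 points lie in the band, and the interval of Eed in EDRE reaches 1.59, the highest bound.

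In ES cells 15 min after IR, log2 changes ran from -0.58 (Jarid2) to 0.48 (Suz12), and no 95% interval went below -1.16 or above 1.11. None of the 10 had an unadjusted p under 0.05, beside 2403 of the 25431 genes tested. The values of ESRE and ES did not overlap for 6 of the 10 subunits, beside 37.8% of the genes tested. Eed was one of them, with 5.39, 5.24 and 5.25 in ESRE, above every ES value, and a log2 change of 0.48 (SE 0.30, limma adjusted p = 0.72). Bmi1 measured 0.42, 0.42 and 0.39, also above every ES value, with a change of 0.40 (SE 0.25, adjusted p = 0.72).

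In ES cells 4 h after IR, changes ran from -0.74 (Jarid2) to 0.20 (Eed), with intervals between -1.32 and 0.84. Groups did not overlap for 2 of the 10 subunits, beside 36.7% of the genes tested. Jarid2 was the only subunit with an unadjusted p under 0.05, beside 6537 of the 25518 genes tested. It measured 2.13, 2.15 and 2.19 in ESRE and 2.41, 1.68 and 1.89 in ESRL, below all ES values at both times, and its changes were -0.58 (SE 0.27, limma adjusted p = 0.53) and -0.74 (SE 0.27, adjusted p = 0.10). ESRL replicate 1 was scanned on its own and had the lowest values of the group for Suz12 (4.53), Mtf2 (4.20) and Bmi1 (-0.74) and the highest for Jarid2 (2.41).

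In ED cells 15 min after IR, changes ran from -0.16 (Ezh1) to 0.96 (Eed), with intervals between -0.70 and 1.59. Groups did not overlap for 3 of the 10 subunits, beside 34.6% of the genes tested. Of the 10 subunits, 5 rest on EDRE replicate 1 alone, 3 on 2 arrays and 2 on all 3. An unadjusted p under 0.05 was common, with 5756 of the 22332 genes tested. Among the subunits Eed, Jarid2 and Mtf2 had one, with changes of 0.96 (SE 0.29, limma adjusted p = 0.059), 0.84 (SE 0.30, adjusted p = 0.090) and 0.64 (SE 0.28, adjusted p = 0.16).

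These 3 values came from the arrays that stood apart. Eed measured 3.54 on EDRE replicate 1, within the ED values, and 5.28 and 4.75 on replicates 2 and 3. Mtf2 measured 1.43, 2.69 and 2.67 on the same arrays, and Jarid2 measured -2.27 and -1.24 on replicates 1 and 2. With EDRE replicate 1 alone, the changes of Eed, Mtf2 and Jarid2 were -0.03, -0.19 and 0.33 (adjusted p = 0.97, 0.82 and 0.73), whereas without EDRE replicate 1 they were 1.45, 1.06 and 1.36 and all 3 passed both thresholds (adjusted p = 2.4e-05, 0.00076 and 0.0034).

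In ED cells 4 h after IR, changes ran from -0.42 (Ezh2) to 0.30 (Eed), with intervals between -0.95 and 0.93. Groups did not overlap for 5 of the 10 subunits, beside 45.5% of the genes tested. Ezh2 was the only subunit with an unadjusted p under 0.05, beside 3151 of the 23156 genes tested. It measured 3.24, 3.19 and 3.13 in EDRL cells, below the 3 ED values, with a change of -0.42 (SE 0.14, limma adjusted p = 0.16) on the brighter probe and -0.51 (SE 0.15, adjusted p = 0.12) on the other.

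Whether the response differed between the cell types was tested with an interaction term, coded as the change in ES minus the change in ED cells. It passed for 0 of the 10 subunits at 15 min, beside 1.98% of genes tested in either direction, and for 0 at 4 h, beside 1.11%. Over all genes, 4737 of 25690 tested at 15 min and 3975 of 25930 at 4 h had an unadjusted p under 0.05. At 15 min the lowest value was that of Jarid2, at -1.42 (SE 0.40, limma unadjusted p = 0.0037, adjusted p = 0.090), the only subunit with an unadjusted p under 0.05, and it passed when outlier spots were kept (-1.61, adjusted p = 0.048) or EDRE replicate 1 was left out (-1.94, adjusted p = 0.0028). At 4 h no subunit had an unadjusted p under 0.05 on its brighter probe, and values lay between -0.52 (Jarid2) and 0.42 (Cbx7), whereas the second Ezh2 probe gave 0.53 (unadjusted p = 0.044, adjusted p = 0.31).

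Across the 6 groups, the means of all ES-derived groups lay above those of all ED-derived groups for 9 of the 10 subunits and below them for Bmi1. The usable arrays did not overlap between these sets for 5 of them, Ezh2, Jarid2, Mtf2, Cbx7 and Bmi1. For Ezh2 this rests on leaving out the outlier spot of EDRE replicate 3, which at 4.47 lay within the ES-derived range of 4.19 to 4.66. Neither count was made for all genes, so it is not known whether they are particular to the subunits. The values of ES and ED cells alone did not overlap for 72.2% of the genes tested. Jarid2 had its highest mean in ES (2.74), followed by ESRE (2.16) and ESRL (1.99), whose values overlapped, and then by EDRE (-1.76), ED (-2.60) and EDRL (-2.82), of which ED and EDRL overlapped. Cbx7 ranked ESRE (4.54), ESRL (4.37) and ES (4.23), each overlapping the next, above ED (1.26), EDRE (1.24, 1 array) and EDRL (0.98). Bmi1 ranked EDRE (3.99, 2 arrays), ED (3.62) and EDRL (3.57) above ESRE (0.41), ES (0.01) and ESRL (-0.19), with overlap between EDRE and ED and between ES and ESRL. The Eed mean of EDRE (4.52) stood between those of ES (4.81) and EDRL (3.87) and overlapped both groups.

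Of the other Polycomb subunits and of the opposing enzymes, 0 passed both thresholds in any of the 4 comparisons after IR or in either interaction. Of the Polycomb targets, 2 of 27 tested fell in ESRL and 2 of 15 tested fell in EDRE cells, beside the 6.73% and 2.81% of all genes given above, and 0 rose. The ESRL count is near the share of all genes. In ESRL cells, Sox17 and Gata4, regulators of endoderm, fell by 1.18 (SE 0.27, limma adjusted p = 0.017) and 1.07 (SE 0.31, adjusted p = 0.044). The Sox17 call held in 21 of 31 alternatives and the Gata4 call in only 8 of 31. Sox17 measured -0.33, -0.54 and -0.37 in ES and -1.95, -1.16 and -1.67 in ESRL cells, and Gata4 -0.34, -0.20 and -0.24 in ES and -1.57, -1.49 and -0.96 in ESRL cells, both without overlap. Relative to the array median both calls were lost (adjusted p = 0.071 and 0.091), as they were without ESRL replicate 1 (-1.0, adjusted p = 0.065, and -0.96, adjusted p = 0.14) and without any 1 of the ES replicates, and with the scan as a random block both had an adjusted p of 1.0. Already in ESRE cells, Sox17 measured -1.02, -0.97 and -0.89 and Gata4 -0.72, -0.49 and -0.52, below every ES value, although neither passed both thresholds. The summed level of 7 primitive endoderm markers, none of them among the targets, was 18.6 to 20.9 in ES cells. It was 10.9 to 15.9 in ESRE and 10.1 to 13.8 in ESRL cells. Of these markers, 1 of the 6 tested fell in ESRL cells, with a median log2 change of -1.01. Their part in the values of Sox17 and Gata4 was not tested.

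In EDRE cells, Irx3 and Sox17 fell by 1.64 (SE 0.23, limma adjusted p = 0.033) and 1.44 (SE 0.27, adjusted p = 0.011). Irx3 was measured on 2 ED arrays (-2.29 and -2.11) and, of the EDRE arrays, only on replicates 2 and 3 (-3.81 and -3.87), the arrays that stood apart. The Irx3 call was lost in 10 of 29 alternatives, among them normexp background correction (-0.69, adjusted p = 0.28), the deposited matrix (-0.98, adjusted p = 0.070) and the scan as a random block (adjusted p = 1.0). Sox17 was well above background on 1 of 3 EDRE arrays, its call was lost with EDRE replicate 1 alone (-0.74, adjusted p = 0.17) and with the scan as a random block (-1.12, adjusted p = 1.0), and its direction turned with another background correction (0.48, adjusted p = 0.30).

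Finally, the genes whose values over the arrays were most like those of Ezh2 and Cbx7 were sought among 3135 RefSeq genes that were usable on all 18 arrays, by the root mean square difference of centered log2 values over the 16 arrays on which both members were measured. For Ezh2 these were Cdc6, a replication licensing factor, at 0.11, Srrm1, a splicing coactivator, at 0.15, and Chd1, a chromatin remodeler, at 0.17. Cdc6 had means of -1.76 in ES and -2.51 in ED cells. For Cbx7 they were Pim2, a survival kinase, at 0.16, the retinol carrier Rbp4 at 0.18 and the channel Trpv2 at 0.19, and the Pim2 means were 3.24 and 0.41. The 16 values of each gene fall into the ES-derived and ED-derived arrays, and likeness here is mainly likeness of that difference.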

How the data were processed

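Expression was measured with Cy3-labeled RNA on 18 Arraystar arrays, 1 per sample, and groups were taken from the labels. The deposited intensity values are processed signals that the authors exported from Agilent Feature Extraction (version 10.7.3.1 in the file headers, 9.1 in the submitters' processing notes), with background subtracted and without scaling across arrays. The outlier and background marks are those of the scanner software. The deposited matrix of log2 values, used as an alternative, holds log2 signals minus a constant near the array median.

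Control spots were left out, and so were spots marked as outliers, except in the summed levels of the marker lists. Each array's 75th percentile was subtracted from its log2 signals and spots of a probe were averaged. A probe was tested if some group in the comparison had it well above background on 3 of 3 arrays, with limma 3.58.1 in R 4.3.3 over all 6 groups. The brightest probe stood for a gene. The number of arrays limits the precision. The fit was checked on simulated data. The members and the gene lists were chosen with earlier results of these data known, and 2 genes were left out of the lists and are not reported here. Named were all members, up to 3 rises and 3 falls per list in ED against ES cells and up to 2 per direction after IR, Cdkn2a, and genes most like Ezh2 and Cbx7. That likeness was to span all arrays, but Ezh2 and Cbx7 had no usable spot on 2. Phc2, Pcgf genes, Kdm2b, Yaf2, Bcor, Bcorl1, Phf1 and the enzymes under the fold threshold were named after their values were seen. Scan times in the files gave 6 scans. The methods' t-test, other scalings, filters and blocks were alternatives.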

Additional observations from a re-analysis of the deposited data

How the results depend on the processing

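In ED against ES cells, the count of 1 subunit that rose held under all alternatives run, and that of 4 that fell ran from 3 (relative to the array median, in the deposited matrix, and with the scan as a random block, with a correlation of 0.81) to 7 (without the fold threshold). Ezh1 turned its direction relative to the array median (0.25) and in the deposited matrix (0.25), and so did Sox17 in EDRE against ED with normexp background correction (0.48). In EDRE against ED, 0 changed subunits became 2 (Eed and Jarid2) relative to the array median and 2 in the deposited matrix, and 1 (Jarid2) with normexp correction and 1 with outlier spots kept. The interaction at 15 min gave 1 (Jarid2) in the deposited matrix and 1 with outlier spots kept. Leaving out each of the 18 arrays in turn gave 1 to 1 rises and 4 to 4 falls in ED against ES, 0 to 3 changed subunits in EDRE against ED and 0 to 2 in the interaction at 15 min, the highest values of both without EDRE replicate 1, and 0 to 0 in each of the others. The replicate numbers did not pair the samples: same-numbered deviations had correlations from -0.43 to 0.30, and a replicate block gave 1 rise and 4 falls in ED against ES and 0 changed subunits elsewhere. Other than for the count of changed subunits in EDRE against ED, EDRE replicate 1 alone was chosen as an alternative after seeing the data. Over all genes, 462 rose and 627 fell in EDRE against ED, beside 1269 and 503 relative to the array median and 2770 and 130 with normexp correction, and 163 rose and 1717 fell in ESRL against ES, beside 523 and 1012 relative to the array median and 28 and 47 with normexp correction. The t-test could not be run for the interactions. Signals over background limit Cdkn2a and the targets dim in ED cells. The cause of these differences was not tested.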
